A study of Mus musculus with 3 samples.

Results

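The genes described here encode the working parts of the lysosome: acid proteases, enzymes that take apart glycans and lipids, proteins of the limiting membrane, and subunits of the proton pump. The 38 genes were chosen by name, as a set of well known lysosomal genes, and all 38 were found among the 18193 genes with a value. They were covered by 84 probe sets. A gene with several probe sets was represented by the one that was brightest on average, on a log2 scale. RNA came from 3 populations of cells sorted from the spleens of adult mice of the genotype Spic(igfp/+), in which 1 Spic allele carries a green fluorescent protein (GFP) reporter, and each population was measured on 1 Affymetrix array. Spic-negative monocytes were sorted as CD11b+ Ly6C+ cells without GFP, Spic-positive monocytes as CD11b+ Ly6C+ cells with GFP, and red pulp macrophages as cells high for both F4/80 and GFP. Beads against CD4, CD8 and B220 had removed lymphocytes before the monocytes were sorted, and the sources used here do not settle whether the macrophages went through it too. All 3 populations carried the reporter allele, and no population with 2 unmodified Spic alleles was analysed here. The sources used here give neither the number of mice behind an array nor their strain or sex.

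Lysosomes digest what a cell takes up by phagocytosis and endocytosis and what it delivers by autophagy, in a lumen that a vacuolar-type proton ATPase keeps acid. Red pulp macrophages clear aged red blood cells from the blood and break them down in phagolysosomes, so their lysosomes receive hemoglobin, membrane lipids and membrane glycoproteins. Many lysosomal genes share a promoter element, called CLEAR, that is bound by transcription factors of the MiT family (TFEB, TFE3, MITF and TFEC).

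With 1 array per population there was no replicate check: differences are given by size only, with no test. Since the arrays report bulk RNA, fewer cells of a type and less RNA per cell cannot be told apart. A value was read as above background when it lay above log2 5.02, the median signal of the non-control probe sets. Of the 38 genes, 37 exceeded this floor on at least 1 array, as did 12375 of all genes. The exception was Atp6v0d2, a tissue-restricted isoform of pump subunit d, at 3.59, 4.22 and 3.46 on the Spic-negative, Spic-positive and macrophage arrays. Gpnmb, a membrane glycoprotein of lipid-loaded macrophages, barely exceeded it, at 4.95, 5.35 and 4.73 in the same order. Gpnmb is counted among the 37, although its folds rest on values near the floor.

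Spic itself, the gene behind the sort, measured 5.66, 9.22 and 12.23 in Spic-negative monocytes, Spic-positive monocytes and macrophages, in the order of the GFP gates. The Spic-positive array stands apart in its 18 hybridization controls. The median of their differences from the Spic-negative array was log2 2.16, beside 0.07 for the macrophage array. The comparison of macrophages with Spic-negative monocytes does not use that array. Erythroid markers were high on the macrophage array alone: each of the 9 markers that cleared the floor there exceeded both monocyte arrays by 4-fold or more. Their summed linear level over 11 measured markers was 244, 286 and 12330 on the Spic-negative, Spic-positive and macrophage arrays. On the macrophage array Epb42 and Hba-a1 remained below the floor. Of 5 natural killer cell markers, Klrd1, Gzma and Eomes exceeded both monocyte arrays there by 4-fold or more. Against Spic-negative monocytes, 4 of 6 T cell markers (Cd3g by 3.51) and 2 of 6 platelet markers (Pf4 by 3.97, Ppbp by 4.85) passed 2-fold upwards on the macrophage array, with summed levels of 304, 350 and 577, and of 417, 379 and 1479, on the 3 arrays. On the Spic-positive array 3 of 7 dendritic cell markers (Itgax by 3.14, Ccr7 by 4.05) and 1 of 8 neutrophil markers (Mpo by 2.86) did so, with summed levels of 2100, 4299 and 2698, and of 31083, 34667 and 31240. These markers were not particular to that array. On the macrophage array 4 of 7 dendritic cell markers (Ccr7 by 2.05) and 2 of 8 neutrophil markers (Mpo by 1.88) passed 2-fold upwards from Spic-negative monocytes. In each list 1 passed it downwards there (Flt3 by -1.24, Mmp8 by -3.38). Among B cell markers, 8 of 9 passed 2-fold upwards from the Spic-negative to the Spic-positive array, with summed levels of 3403, 10452 and 24851 on the 3 arrays. Ighm, the brightest of them, measured 11.47, 12.97 and 14.49, while 6 of the 9 lay lower on the macrophage array than on the Spic-positive one. The part of these cells in the lysosomal values was not tested. The macrophage array also had Xist at 11.95, against 4.63 and 4.70 on the monocyte arrays, and the Y-linked Eif2s3y at 3.31, against 10.10 and 9.56. These sex-linked transcripts separate the macrophage array from both monocyte arrays, so sex and population cannot be told apart in any macrophage difference. The part of sex was not tested, for Lamp2 and Gla, the X-linked genes of the set, or for any other gene.

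Most lysosomal genes were carried at similar levels in all 3 populations. For 27 of the 37 genes above the floor, the highest and the lowest array lay less than 2-fold apart, which was so for 58.2% of all genes above the floor. Lamp1, a heavily glycosylated protein of the lysosomal membrane, measured 12.64, 12.70 and 12.67 on the Spic-negative, Spic-positive and macrophage arrays. The macrophage marker Cd68 measured 11.44, 11.40 and 11.76, and Grn, the precursor of the granulins, 12.48, 12.25 and 12.51. These genes were nearly level across the populations.

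**Figure D1:**
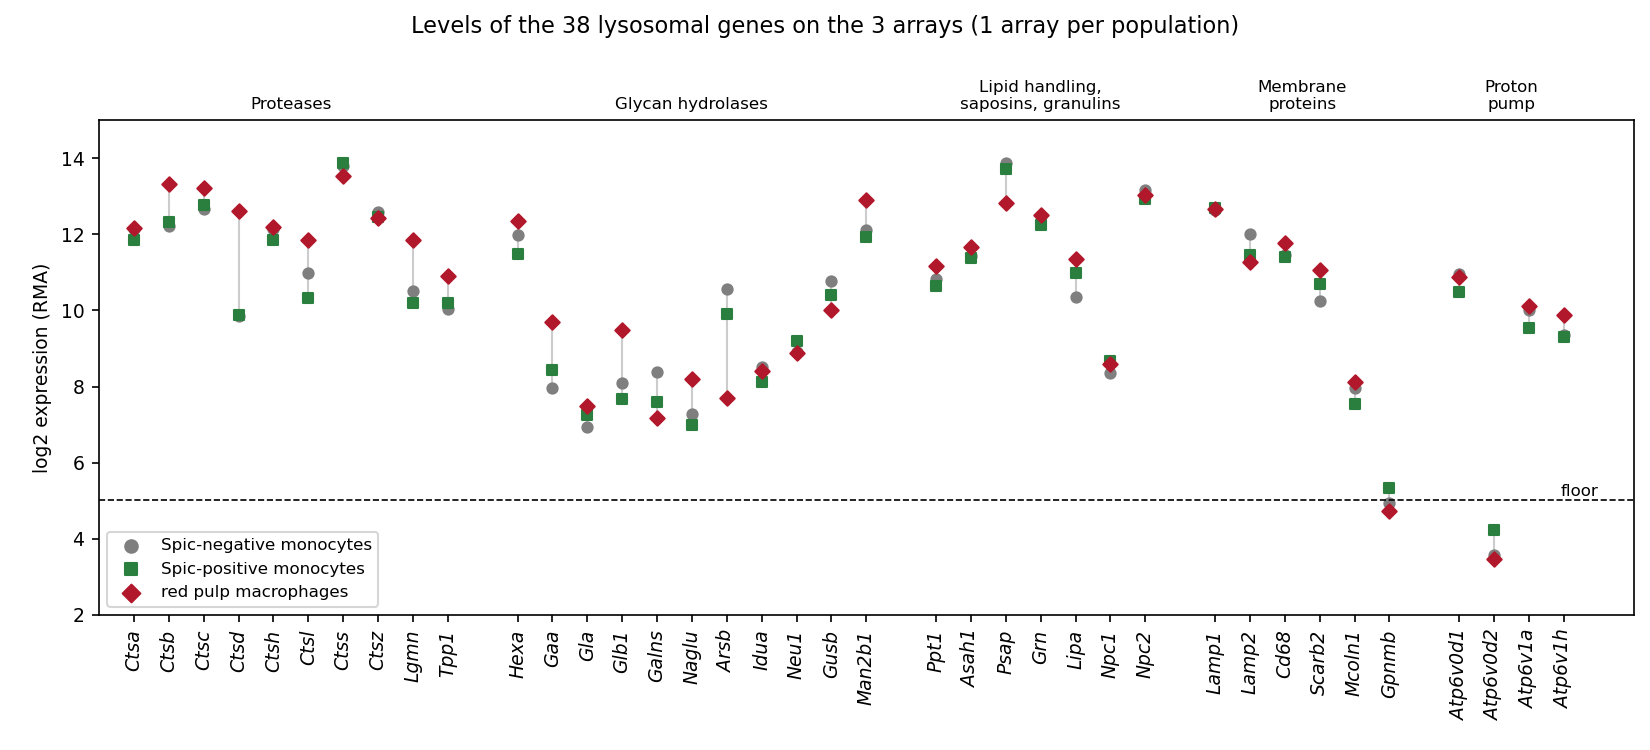
Log2 expression of the 38 genes on the arrays of Spic-negative monocytes (circles), Spic-positive monocytes (squares) and red pulp macrophages (diamonds), grouped by role, with the floor at 5.02 dashed. The widest gaps belong to Ctsd, Arsb and Glb1, while Atp6v0d2 lies below the floor on all 3 arrays.

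Spic-positive and Spic-negative monocytes did not differ by 2-fold in any of the 37 genes of the set. Of the 37 genes 0 passed 2-fold upwards (3.49% of all genes did) and 0 downwards (3.06%), and likewise 0 at 4-fold (0.663% and 0.0485%). At 1.5-fold, Lipa was higher (10.4% of all genes were) and Galns, Arsb and Ctsl were lower (12.6%). The differences ran from -0.79 for Galns to 0.62 for Lipa, with a median of -0.19 beside -0.06 for all genes. Of the 37 genes 24 lay below 0, as did 55.0% of all genes. Galns, which removes sulfate from keratan sulfate and chondroitin sulfate, measured 8.38 on the Spic-negative array and 7.58 on the Spic-positive one. Lipa, the acid lipase that frees cholesterol from its esters, measured 10.36 and 10.98, and its 2 further probe sets were higher in Spic-positive monocytes too, by 0.93 and 0.19. On the same arrays 9 of 11 red pulp macrophage markers passed 2-fold upwards in Spic-positive monocytes, counting Spic itself, whose reporter set the gates.

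Red pulp macrophages passed 2-fold from Spic-negative monocytes in 8 of the 37 genes of the set. Of the 37 genes Ctsb, Ctsd, Lgmn, Gaa and Glb1 were higher, 5 in all (19.6% of all genes were), and Galns, Arsb and Psap lower, 3 in all (11.3%). Neither share was above that of all genes. At 4-fold 1 was higher, Ctsd (7.38%), and 1 lower, Arsb (2.63%). At 1.5-fold 11 were higher (29.5%) and 5 lower (22.1%). The median was 0.23, beside 0.03 for all genes, and 12 genes lay below 0 (48.2%). Against Spic-positive monocytes, 6 genes were higher by 2-fold or more (22.0%) and 1 lower (11.6%), with a median of 0.36 beside 0.10 for all genes. At 4-fold Ctsd was higher (7.22%) and Arsb lower (2.04%), at 1.5-fold 11 genes were higher (33.4%) and 3 lower (24.5%), and 11 lay below 0 (46.1%). These comparisons share arrays and are not independent. The median of 0.23 became 0.04 with the mean and 0.0078 with the median of each gene's probe sets, those below the floor included. The shift of the set as a whole thus depended on how probe sets were chosen or averaged.

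The macrophage array was the highest of the 3 for 23 of the 37 genes, against 45.5% of all genes. Spic-negative monocytes were highest for 9 genes (28.6%) and Spic-positive monocytes for 5 (25.9%). With the mean of each gene's probe sets, the macrophage array was highest for 15 of 36 genes, beside 43.3% of all genes, and with their median for 14 of 36, beside 43.0%.

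**Figure D2:**
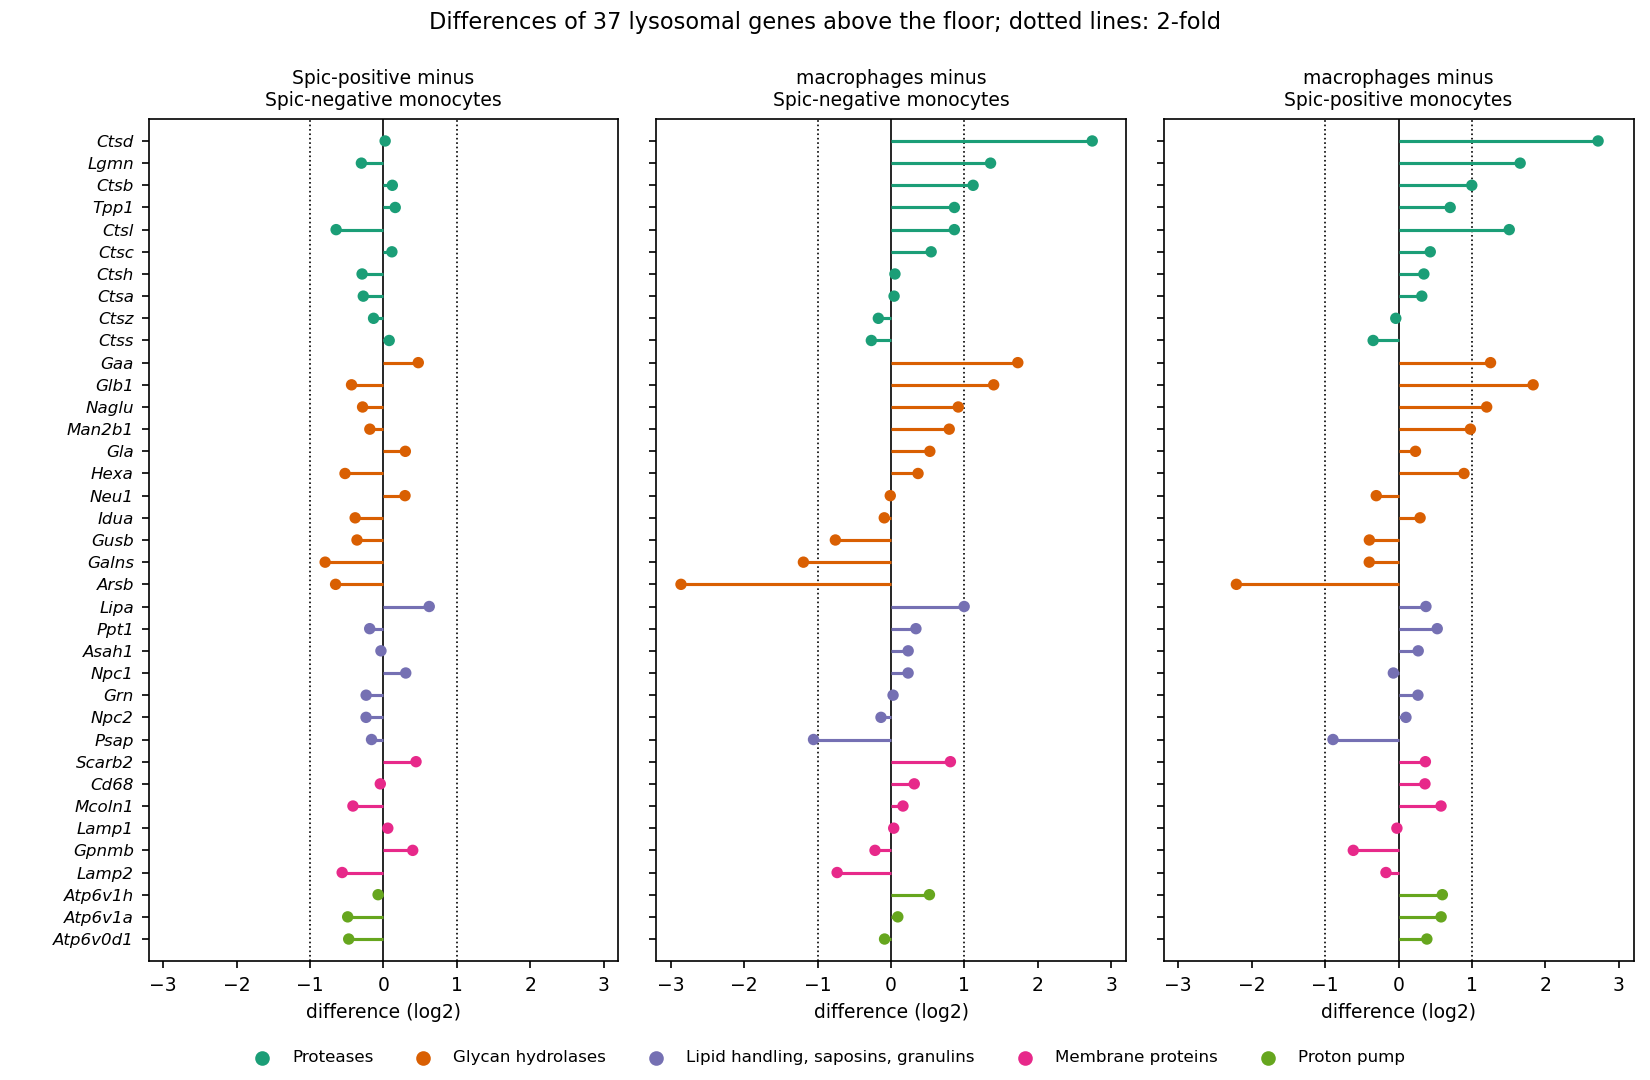
Log2 differences of the 37 genes above the floor in the 3 comparisons, coloured by role, with dotted lines at 2-fold. No point passes 2-fold between the monocyte arrays, whereas Ctsd reaches 2.74 and Arsb -2.86 for macrophages minus Spic-negative monocytes.

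Among the 10 proteases, 8 were highest on the macrophage array on their brightest probe sets, beside 45.5% of all genes. Ctsd, the main aspartic protease of the lysosome, measured 9.86, 9.88 and 12.60 on the Spic-negative, Spic-positive and macrophage arrays. The monocyte arrays were alike and the macrophage array stood 6.68-fold above Spic-negative and 6.58-fold above Spic-positive monocytes. Only 1 probe set covers Ctsd, so no second measurement of it was at hand. Lgmn, an asparaginyl endopeptidase that also matures other cathepsins, measured 10.50, 10.20 and 11.86, and was 2.56-fold and 3.15-fold higher in macrophages, again from 1 probe set.

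Ctsb, a cysteine protease of broad specificity, had the best coverage, with 5 probe sets above the floor. Its brightest measured 12.21, 12.33 and 13.33, a difference of 1.12 from Spic-negative monocytes and of 0.997 from Spic-positive monocytes, the latter just under 2-fold. The 4 further probe sets were all higher in macrophages, by 1.90 to 3.15 against Spic-negative monocytes. The size of the Ctsb difference therefore depends on the probe set, while its direction did not. Ctsl, a cysteine endopeptidase, measured 10.98, 10.33 and 11.84, so that it was lowest in Spic-positive monocytes, and it passed 2-fold against these (1.51) but not against Spic-negative monocytes (0.86). Tpp1, which removes tripeptides from the ends of proteins, measured 10.03, 10.19 and 10.90, under 2-fold in both comparisons, although its further probe set was higher by 1.22 and 1.35.

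The other proteases stayed within 2-fold on their brightest probe sets. Ctss, which trims the invariant chain of MHC class II, was the 1 protease with its top value in Spic-positive monocytes, at 13.79, 13.87 and 13.52. Ctsc, which activates the serine proteases of granules, measured 12.67, 12.78 and 13.21, Ctsa, a carboxypeptidase that protects beta-galactosidase and sialidase, 12.13, 11.86 and 12.18, and Ctsh, an aminopeptidase, 12.13, 11.84 and 12.18. Ctsz, a carboxypeptidase, was highest in Spic-negative monocytes, at 12.59, 12.46 and 12.42. A dimmer probe set of Ctsc, at 7.41, 7.44 and 9.43, was higher in macrophages by 2.02 and 1.99, while another differed by 0.28 and -0.07. The further probe sets of Ctsa (5.99, 6.35 and 5.90) and Ctsh (11.36, 11.36 and 11.15) put macrophages lowest. Those of Ctsz put Spic-negative monocytes lowest. As a role, proteases had a median difference of 0.70 against Spic-negative monocytes, the largest of the 5 roles, and of -0.06 between the monocyte arrays.

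Enzymes that degrade glycans differed in both directions. Gaa, the acid alpha-glucosidase of glycogen, measured 7.97, 8.44 and 9.69 on the Spic-negative, Spic-positive and macrophage arrays, and its further probe set gave 7.81, 8.31 and 9.46. The 3 arrays thus kept the same order on both probe sets. Glb1, the acid beta-galactosidase, measured 8.10, 7.66 and 9.49, higher in macrophages by 1.40 and 1.83. Naglu, which acts on heparan sulfate, measured 7.27, 6.99 and 8.19 and passed 2-fold against Spic-positive monocytes only (1.20, beside 0.92). Man2b1, the alpha-mannosidase of glycoprotein breakdown, had 12.11, 11.93 and 12.90.

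Arsb, the sulfatase of dermatan sulfate and chondroitin sulfate, was the gene with the largest difference downwards. It measured 10.55, 9.90 and 7.69 on the Spic-negative, Spic-positive and macrophage arrays, 7.26-fold and 4.62-fold lower in macrophages. A further probe set measured 6.32, 5.38 and 4.97, again lowest in macrophages, by -1.35 against Spic-negative and -0.41 against Spic-positive monocytes, and there the macrophage value lay below the floor. Galns, the other sulfatase of the set, was lower in macrophages than in Spic-negative monocytes by -1.19, at 7.18. Gusb, the beta-glucuronidase, measured 10.77, 10.41 and 10.01, and its further probe set was lower by -1.20 against Spic-negative monocytes.

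The remaining glycan hydrolases differed by less than 2-fold on every pair of arrays on their brightest probe sets. Hexa, the alpha chain of beta-hexosaminidase, measured 11.99, 11.47 and 12.36, and Gla, which removes galactose from glycosphingolipids, 6.95, 7.25 and 7.48. Idua, the alpha-iduronidase, measured 8.50, 8.12 and 8.41, and the sialidase Neu1 8.90, 9.19 and 8.89. A dimmer Neu1 probe set was lower in macrophages by -1.08 and -1.38. The further probe set of Gla, near the floor at 4.94, 5.25 and 4.71, also put macrophages lowest. The median of the 11 glycan hydrolases was 0.37 against Spic-negative monocytes, with 2 genes higher and 2 lower at 2-fold.

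Lipid handling genes and the precursors of saposins and granulins included 1 gene past 2-fold. Psap, whose product is cut into the saposins that activate sphingolipid hydrolases, measured 13.88, 13.72 and 12.82 on the Spic-negative, Spic-positive and macrophage arrays, a difference of -1.06 from Spic-negative monocytes. The further probe set of Psap gave 13.08, 12.51 and 8.95, which is -4.13. Both were lowest in macrophages and they differ in size. The gap between them was wider on the macrophage array than on the monocyte arrays.

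The probe sets of Lipa disagreed in direction. The brightest, which can bind several transcripts, measured 10.36, 10.98 and 11.35, higher in macrophages than in Spic-negative monocytes by 0.996, just under 2-fold. The others measured 10.26, 11.19 and 8.22, and 9.25, 9.44 and 8.39, which put macrophages lowest, by -2.04 and -0.86. No direction can be given for Lipa in macrophages from these arrays. Man2b1 was split likewise, with a further probe set at 8.85, 9.50 and 7.97. So was Ppt1, which removes palmitate from proteins: its brightest probe set measured 10.82, 10.63 and 11.16, and 2 further ones differed by 1.10 and -0.90 between macrophages and Spic-negative monocytes. The controls for the 3' and 5' ends of Gapdh differed by 0.48, 2.25 and 1.61 on the arrays of Spic-negative monocytes, Spic-positive monocytes and macrophages, those of beta-actin by 0.74, 0.57 and 1.13, and the part of RNA shortening in the split between probe sets was not tested.

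**Figure D3:**
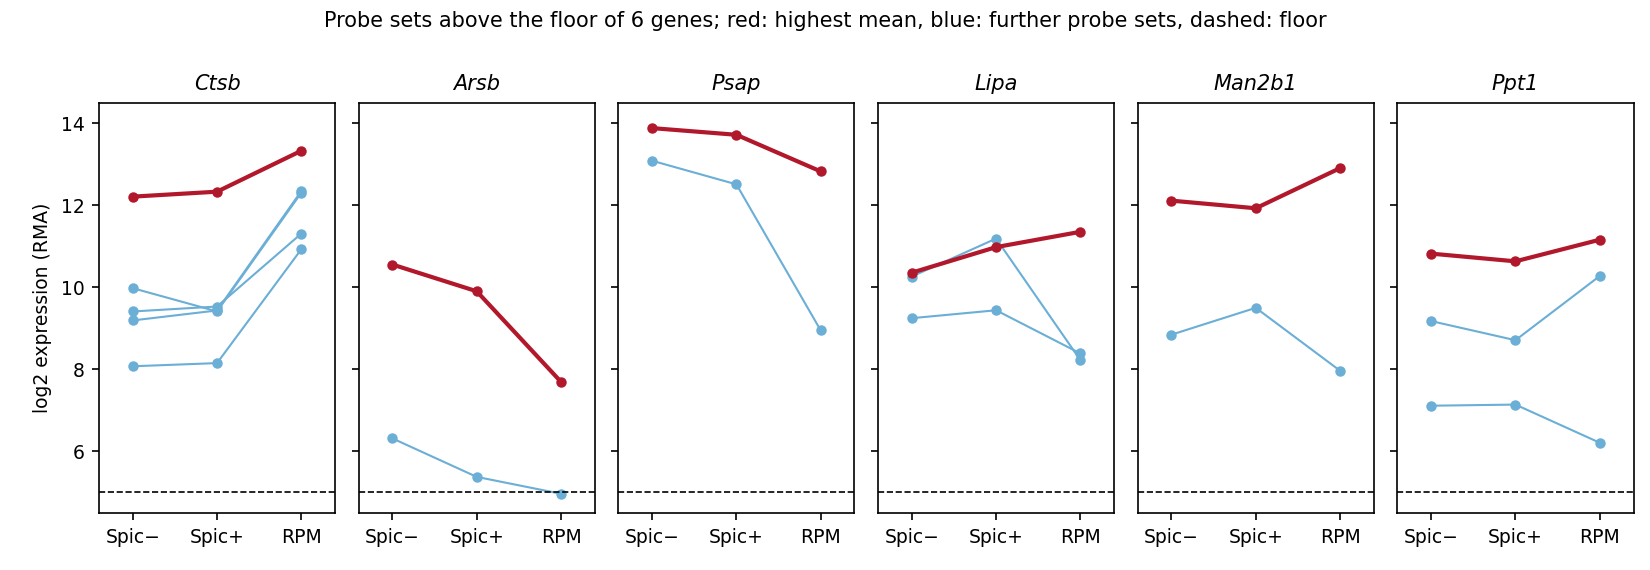
Log2 expression on the 3 arrays (Spic− and Spic+, monocytes; RPM, red pulp macrophages) of every probe set above the floor for Ctsb, Arsb, Psap, Lipa, Man2b1 and Ppt1, with the probe set of the highest mean in red, the others in blue and the floor dashed. The probe sets of Ctsb, Arsb and Psap keep 1 direction from Spic-negative monocytes to macrophages, and those of Lipa, Man2b1 and Ppt1 do not.

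Over the whole set, 24 genes had at least 1 further probe set above the floor, 37 in all. In the comparison of macrophages with Spic-negative monocytes, 25 of the 37 further probe sets moved the same way as the gene's own, and in 14 of the 24 genes all of them did. Of the 8 genes past 2-fold in that comparison, Ctsb, Gaa, Arsb and Psap had further probe sets, all in the same direction and all past 2-fold. Ctsd, Lgmn, Glb1 and Galns rested on 1 probe set above the floor.

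The other lipid genes were nearly level on their brightest probe sets. Asah1, the acid ceramidase, measured 11.42, 11.39 and 11.65. The cholesterol transfer proteins Npc1 and Npc2, which together move cholesterol out of the lysosome, measured 8.37, 8.67 and 8.60, and 13.15, 12.92 and 13.02. A dim probe set of Npc2 was lower in macrophages than in Spic-negative monocytes by -1.35, and the other further ones by -0.11 and -0.52.

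Among membrane proteins, none of 6 passed 2-fold. Scarb2 (LIMP-2), the receptor that carries beta-glucocerebrosidase to lysosomes, measured 10.26, 10.70 and 11.06, the order of the GFP gates, but its further probe set put Spic-positive monocytes lowest, at 10.19, 9.97 and 10.86. Lamp2, which also serves chaperone-mediated autophagy, measured 12.01, 11.45 and 11.28, and all 3 further probe sets were likewise lower in both other populations than in Spic-negative monocytes. Mcoln1, the calcium channel TRPML1, measured 7.95, 7.53 and 8.11. Its further probe sets opposed each other, at 0.99 and -1.47 for macrophages against Spic-negative monocytes and at 1.29 and -0.96 against Spic-positive monocytes.

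Proton pump subunits hardly differed on their brightest probe sets. Atp6v1a, the catalytic subunit A, measured 10.02, 9.54 and 10.12 on the Spic-negative, Spic-positive and macrophage arrays. Atp6v1h, a regulatory subunit, measured 9.36, 9.29 and 9.89, and Atp6v0d1, the ubiquitous isoform of subunit d, 10.97, 10.49 and 10.88. Atp6v1a and Atp6v0d1 lay lower in Spic-positive monocytes, by -0.49 and -0.47, while Atp6v1h differed by -0.07, which became 0.09 with cyclic loess and 0.08 with quantile normalization again. Further probe sets of Atp6v1a and Atp6v1h put macrophages below Spic-negative monocytes, by -0.78 and -0.30. On brightest probe sets, none of 15 further pump genes above the floor passed 2-fold between macrophages and Spic-negative monocytes or between the monocyte arrays. Only 1, Atp6v1d, did so between macrophages and Spic-positive monocytes (1.05). Their dimmer probe sets passed 2-fold against Spic-negative monocytes for Atp6v0b (2.08), Atp6v0a1 (1.46), Atp6v1e1 (1.43), Atp6v1d (1.10) and, downwards, Atp6v1b2 (-1.58).

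The promoters of the set were examined for the letters of the CLEAR element, because its binding factors are themselves lysosomal regulators. RefSeq windows of GRCm38.p6, from 250 bases before to 50 bases after a start site, were at hand for 31 of the 38 genes, in 34 windows. The E-box core CACGTG, which reads the same on both strands, occurred in 12 of the 31 genes (38.7%), beside 8.09% of 27025 genes and 7.15% of 32851 windows. The 8-base stretch GTCACGTG, which contains the core, was found on either strand in 9 of the 31 genes, beside 2.55% of all genes, and TCACGTGA, which also contains it, in 6, beside 1.12%. The whole CLEAR palindrome, which extends GTCACGTG so that it reads the same on both strands, was in 0 of the 31, beside 0.370%. The ETS-type site GAGGAAGT, of the kind that PU.1 and SPI-C bind, was found on either strand in Ctsc, Ctss, Gla and Gusb, 4 of 31, beside 3.69%. The MAF recognition element was searched as 1 fixed word on either strand and was in 0, beside 0.167%. A match is a description of letters and not evidence of binding. CLEAR is an element that many lysosomal genes share, and the 38 genes were chosen as well known lysosomal genes. A share of the core above that of all genes is therefore not an independent result.

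In all, 19 core sites lay in the windows of the 12 genes, and 5 genes had more than 1. The longest match to the palindrome was 9 of its 10 bases, in Ctsd, Ctsa, Mcoln1, Atp6v0d1 and Gla. Their windows are shown from 250 bases before to 25 bases after the start site, 5′ to 3′ on the strand of the gene, with each match to the palindrome in capitals, so that the sites can be compared with the levels above. They lie at chr7:142387803-142388077 (minus strand), chr2:164833523-164833797 (plus strand), chr8:3500269-3500543 (plus strand), chr8:105566040-105566314 (minus strand) and chrX:134600981-134601255 (minus strand) of GRCm38.p6.
Ctsd: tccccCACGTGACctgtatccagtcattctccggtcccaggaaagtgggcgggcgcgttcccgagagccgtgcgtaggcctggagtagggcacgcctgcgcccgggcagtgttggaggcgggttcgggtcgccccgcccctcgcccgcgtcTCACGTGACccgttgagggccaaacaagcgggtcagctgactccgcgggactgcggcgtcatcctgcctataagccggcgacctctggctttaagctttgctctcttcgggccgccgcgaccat
Ctsa: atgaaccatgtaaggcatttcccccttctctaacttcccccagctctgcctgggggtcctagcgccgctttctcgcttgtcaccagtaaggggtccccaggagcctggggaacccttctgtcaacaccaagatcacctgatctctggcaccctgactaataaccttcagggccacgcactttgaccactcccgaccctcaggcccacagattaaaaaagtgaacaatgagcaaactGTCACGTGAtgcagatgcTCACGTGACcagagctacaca
Mcoln1: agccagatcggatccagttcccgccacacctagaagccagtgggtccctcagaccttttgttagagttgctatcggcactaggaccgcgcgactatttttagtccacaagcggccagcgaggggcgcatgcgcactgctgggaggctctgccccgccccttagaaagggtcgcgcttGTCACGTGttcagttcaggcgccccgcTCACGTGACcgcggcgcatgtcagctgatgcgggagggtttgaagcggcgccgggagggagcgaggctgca
Atp6v0d1: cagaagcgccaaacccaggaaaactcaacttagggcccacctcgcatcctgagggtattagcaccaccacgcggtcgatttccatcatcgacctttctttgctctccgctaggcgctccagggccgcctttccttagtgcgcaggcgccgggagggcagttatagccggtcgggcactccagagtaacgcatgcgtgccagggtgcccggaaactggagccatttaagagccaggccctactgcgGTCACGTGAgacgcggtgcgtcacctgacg
Gla: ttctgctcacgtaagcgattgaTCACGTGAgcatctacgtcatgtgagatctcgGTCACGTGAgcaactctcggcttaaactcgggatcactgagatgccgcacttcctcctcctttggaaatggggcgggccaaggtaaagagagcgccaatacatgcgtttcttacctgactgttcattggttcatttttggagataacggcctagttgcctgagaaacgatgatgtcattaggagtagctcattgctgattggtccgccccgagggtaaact
The 9-base match of Ctsd begins, at its core, 98 bases before the start site, and a second site of 8 bases lies 245 bases before it. In Atp6v0d1 the core begins 3 bases before the start site, and in Ctsa sites lie on either side of it.

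The other 7 genes with a core had shorter matches, shown with 15 bases on each side of the core where the window allows, with the match in capitals, since 5 of these genes are among those higher in macrophages. They lie at chr9:114401015-114401050 (plus strand), chr12:102439121-102439156 (minus), chr11:101070006-101070041 (plus), chr11:119267808-119267843 (plus), chr13:64370736-64370770 (minus), chr16:44139370-44139405 (minus) and, for the longest of 4 sites in Lamp1, chr8:13159118-13159153 (plus).
Glb1: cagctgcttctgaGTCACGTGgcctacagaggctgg
Lgmn: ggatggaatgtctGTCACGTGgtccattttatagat
Naglu: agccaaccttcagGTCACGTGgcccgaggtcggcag
Gaa: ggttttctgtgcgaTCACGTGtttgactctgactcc
Ctsl: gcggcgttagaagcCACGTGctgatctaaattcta
Atp6v1a: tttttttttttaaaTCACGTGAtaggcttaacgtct
Lamp1: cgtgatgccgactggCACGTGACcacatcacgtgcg
Glb1, Lgmn and Naglu hold the same 8 bases within 48 to 73 bases before the start site of the window shown. Ctsl has the bare core 236 bases before its start site. Lgmn and Ctsa each had a further window, at another start site, without a core.

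Genes with the core were higher in macrophages than genes without it. This split was made after the values were seen and has no test. Against Spic-negative monocytes, the 12 genes with a core had a median difference of 0.70, with 11 of 12 above 0 and 4 at least 2-fold higher. The 19 genes without a core had a median of -0.01, with 9 of 19 above 0, none 2-fold higher and 2 (Arsb and Psap) 2-fold lower. Against Spic-positive monocytes the medians were 0.89 and 0.26, and Ctsd, Ctsl, Lgmn, Gaa, Glb1 and Naglu, the 6 genes past 2-fold upwards, all had a core. Between the monocyte arrays the medians were -0.29 with and -0.16 without a core. Ctsb, for which no window was at hand, is not in the split. With the mean or the median of each gene's probe sets, 8 of 12 genes with a core lay above 0 against Spic-negative monocytes. Of the 18 genes without a core in those settings, 1 was then 2-fold higher, as was 1 of 19 with centring and with cyclic loess.

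Among all genes the same split gave a smaller gap. Of those above the floor, 20.6% of 1144 with a core and 19.1% of 8857 without were at least 2-fold higher in macrophages than in Spic-negative monocytes. Among the other lysosomal genes, listed next, no such gap was seen: the medians were 0.16 for 12 genes with a core and 0.16 for 38 without, and 16.7% with a core and 26.3% without were at least 2-fold higher. Against Spic-positive monocytes their medians were 0.23 with and 0.33 without. Of the genes of the set with a core, Lamp1, Mcoln1, Ctsa, Gla, Atp6v0d1 and Atp6v1a stayed under 2-fold in every comparison on their brightest probe sets.

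**Figure D4:**
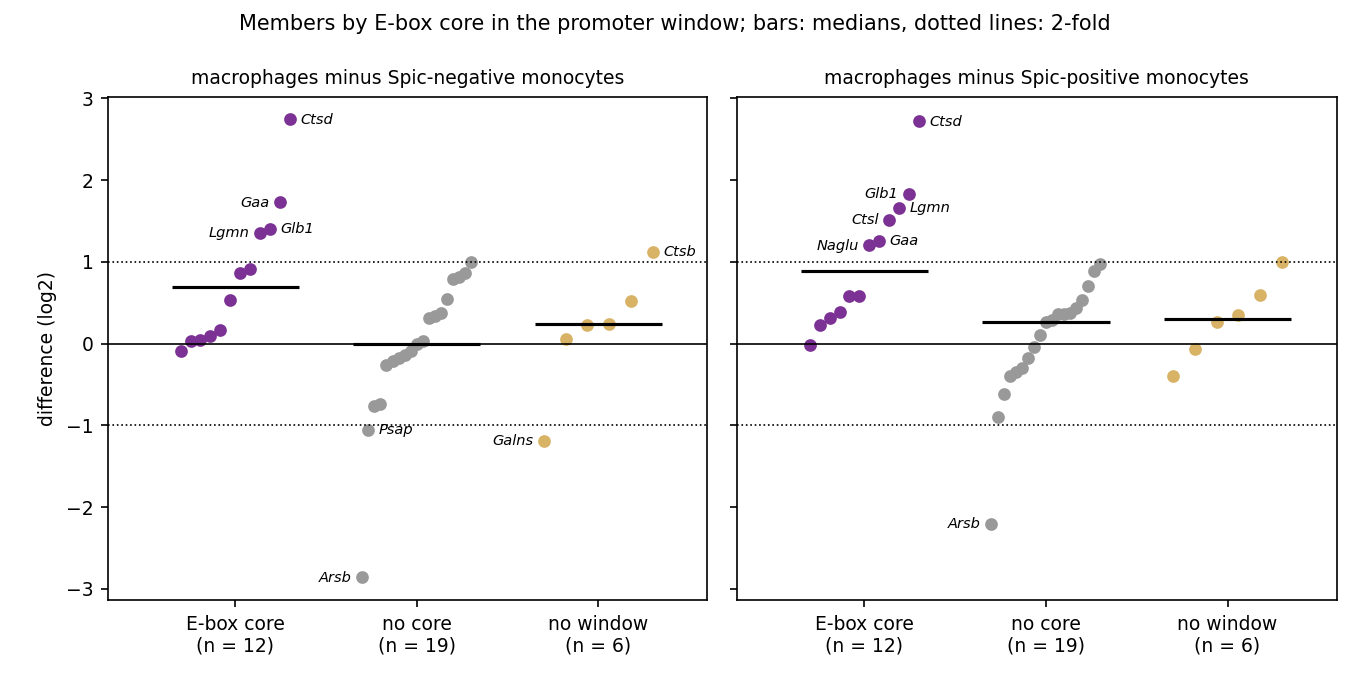
Log2 differences of the genes above the floor, macrophages minus Spic-negative monocytes (left) and minus Spic-positive monocytes (right), for 12 genes with an E-box core in the promoter window, 19 without and 6 with no window at hand. Bars are medians and dotted lines 2-fold. All 6 genes past 2-fold upwards on the right have a core, and Arsb, without one, is the lowest on both sides.

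The other genes of the lysosome, 65 from lists of further hydrolases, membrane proteins and pump subunits, of which 59 lay above the floor, held larger differences upwards than the set itself, and none downwards as large as that of Arsb. Between macrophages and Spic-negative monocytes, 15 of the 59 passed 2-fold upwards (19.6% of all genes did) and 4 downwards (11.3%). The median difference was 0.17, beside 0.23 for the main set and 0.03 for all genes. Pld3, an endolysosomal nuclease of the phospholipase D family, measured 7.44, 7.87 and 12.55 on the Spic-negative, Spic-positive and macrophage arrays. Acp5, the tartrate-resistant acid phosphatase, measured 7.74, 9.59 and 11.97, and Pla2g15, the lysosomal phospholipase A2, 7.92, 8.23 and 12.09. Acp2, the lysosomal acid phosphatase, measured 7.66, 9.40 and 11.09, and its 2 further probe sets had the same order of arrays.

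Between the monocyte arrays the other lysosomal genes passed 2-fold about as often as all genes. Acp5 and Acp2, higher by 1.85 and 1.74, were the 2 of 59 genes that passed 2-fold upwards in Spic-positive monocytes (3.49% of all genes did), and the sphingomyelinase gene Smpd1 the 1 that did so downwards (-1.29, beside 3.06%), though its further probe set gave 0.44. In macrophages, the aspartic protease gene Ctse was higher by 1.14 and 1.72 than in Spic-negative and Spic-positive monocytes. It is known in red blood cells too, and the erythroid markers given above were high on the same array. Of the membrane proteins, Mcoln2 (2.47), Laptm4b (2.28), Cd164 (2.17) and the divalent metal transporter gene Slc11a1 (1.30) were higher in macrophages than in Spic-negative monocytes. The calcium channel gene Tpcn1 was lower (-1.36), though a further probe set above the floor differed by only -0.11.

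For the MiT factors no common direction was seen. Tfeb measured 8.34, 8.03 and 7.31 and Tfe3 8.86, 8.97 and 7.63, lower in macrophages than in Spic-negative monocytes by -1.03 and -1.23. Mitf measured 8.44, 8.34 and 9.43, higher by 0.99, and Tfec, a family member found in macrophages, 6.87, 7.79 and 8.72, higher by 1.85. Tfec thus followed the order of the GFP gates, with 1 probe set. Rragd, a Rag GTPase that recruits mTORC1 to lysosomes, measured 3.13, 3.42 and 8.57, so it was above the floor in macrophages only, and its 2 further probe sets lay below the floor on all 3 arrays. Of the 19 genes in this list, 2 passed 2-fold upwards (19.6% of all genes did) and 3 downwards (11.3%) in macrophages against Spic-negative monocytes, the third of the lower ones being Lamtor4 (-1.62), a subunit of the Ragulator.

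**Figure D5:**
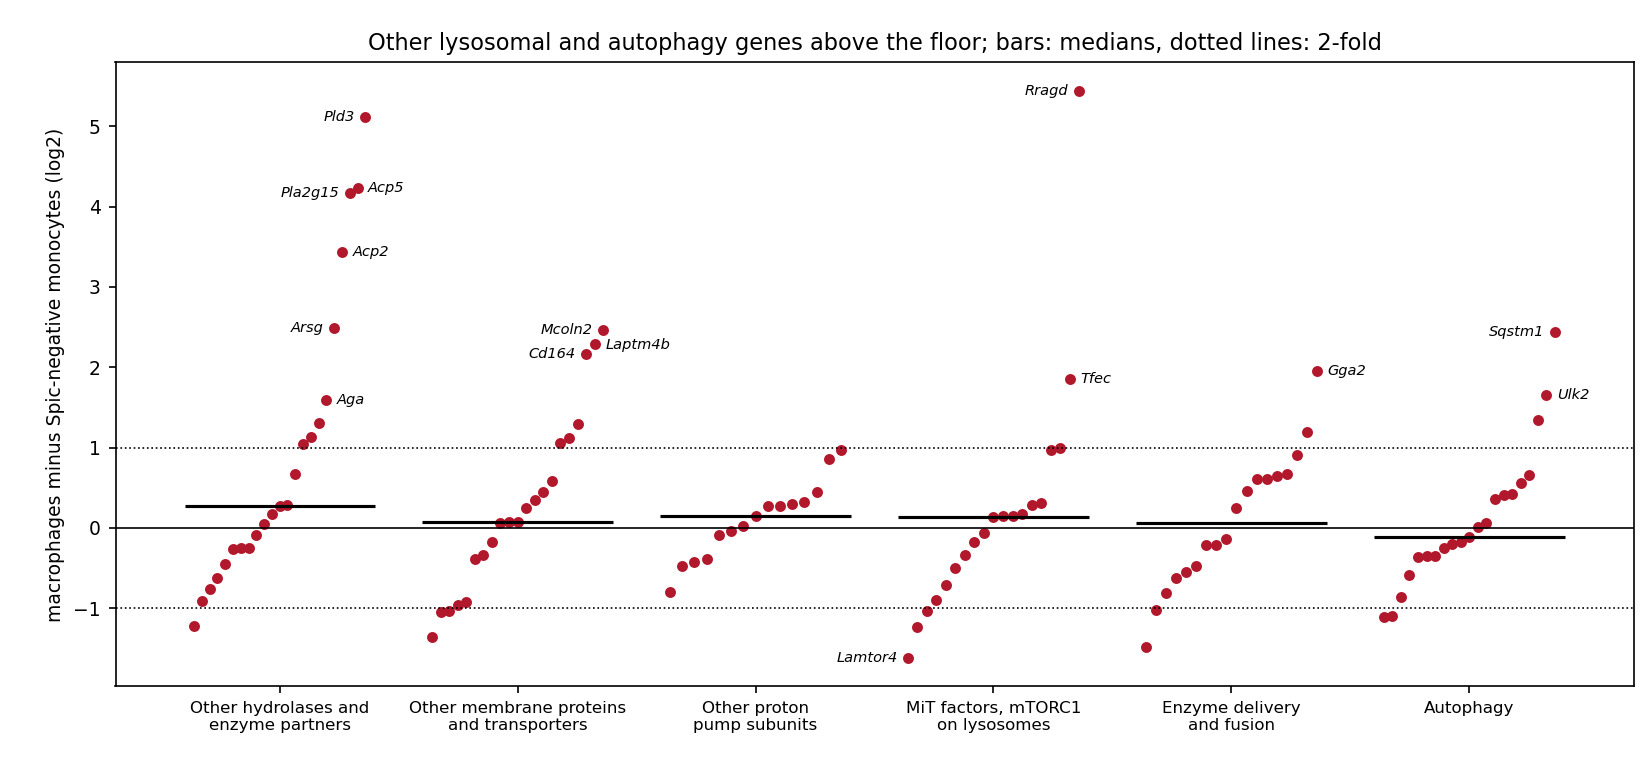
Log2 differences, macrophages minus Spic-negative monocytes, of genes above the floor in 6 further lists, with medians as bars and 2-fold as dotted lines. Pld3 (5.11), Acp5 (4.23), Pla2g15 (4.17) and Rragd (5.44) lie above every gene of the main set, whose highest value is 2.74 for Ctsd.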

How the data were processed

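RNA of 3 sorted populations was hybridised to 1 Affymetrix array each, after column purification and 2-cycle biotin labelling, per the labels' protocols. The authors deposited log2 values per probe set from RMA, per the submitters' processing notes, which name no version of it. The log2 scale was inferred from the values (1.82 to 14.50). RMA normally equalises the intensity distributions of arrays, which would hide differences in total RNA. Of 45037 probe sets other than 64 controls, 34945 had 1 gene symbol in the platform annotation, and 34741 of these were updated by gene identifier. Per gene the probe set with the highest mean was used, and genes above log2 5.02 on at least 1 array were compared at 2-fold and 4-fold. The members, lists and motifs were chosen with earlier results of these data known. Every member is named, and per list and comparison at most the 4 genes with the largest difference past 2-fold. Mitf, Ctse, Cst3 and Cstb are named in addition where they bear on a statement, and were chosen after their values were seen. Alternatives changed the probe set rule, normalization (median centring, quantile, cyclic loess), floor and fold threshold. Scripts were tested on simulated data. Python 3.11.15, numpy 2.4.6, pandas 2.3.3, matplotlib 3.10.9, R 4.3.3 and limma 3.58.1 were used. The number of arrays limits the precision.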

Additional observations from a re-analysis of the deposited data

How the results depend on the processing

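With 1 array per population no value has a replicate error, and folds against levels near the floor depend on the background. No paired analysis was possible because each population had 1 array and the labels give no replicate numbers. All 15 differences of members past 2-fold kept their direction under the 6 alternatives of probe set rule and normalization, but 4 of them were under 2-fold in some: Galns (to -0.68) and Psap (to -0.85) in 2 of 6 each, Naglu (to 0.93) and Arsb against Spic-positive monocytes (to -0.41) in 1 of 6 each. No member passed 2-fold between the monocyte arrays under any setting at that threshold. Of 684 single member values under these alternatives, 637 moved by less than the median SD between probe sets of a gene (0.32 to 0.57), and 47 by more. Many of them had little room to move. The probe set rule could not change genes with 1 probe set, such as Ctsd, Lgmn, Glb1 and Naglu, and centring shifted all genes of an array by the same amount.

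At 1.5-fold, members higher and lower numbered 1 and 3 between the monocyte arrays, 11 and 5 for macrophages against Spic-negative monocytes, and 11 and 3 against Spic-positive monocytes. The members lower by 2-fold against Spic-positive monocytes numbered 3 with the mean and 3 with the median of a gene's probe sets, and 2 when probe sets shared between transcripts were dropped, beside 1 with the brightest probe set. Median differences were -0.068 between the monocyte arrays (median of probe sets), 0.040 (mean), 0.0078 (median) and 0.12 (quantile normalization again) against Spic-negative monocytes, and 0.19 (mean), 0.083 (median) and 0.48 (centring) against Spic-positive monocytes. Members highest on the macrophage array numbered 15 (mean) and 14 (median), and those highest on the Spic-positive array 9 (mean), 11 (median) and 3 (centring).

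For members with an E-box core, under alternatives chosen after seeing the data, the median against Spic-negative monocytes was 0.51 (mean), 0.92 (median) and 0.89 (without shared probe sets). Against Spic-positive monocytes it was 1.20 (median), 1.18 (without shared probe sets), 1.01 (centring), 0.68 (quantile) and 0.77 (loess). For members without a core it was -0.16 (mean) and -0.19 (median) against Spic-negative monocytes, and -0.049 (mean), -0.11 (median), 0.10 (without shared probe sets) and 0.38 (centring) against Spic-positive monocytes. The change of sign from 0.26 to -0.049 and -0.11 came with averaging over probe sets, and the cause was not tested. In each of these settings the median with a core was above that without. Centring moved the median of all genes against Spic-positive monocytes from 0.10 to 0.23.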

Other observations

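Genes of autophagy, which delivers a cell's own material to lysosomes, passed 2-fold in few cases. Of the 21 measured above background, 3 did so upwards (19.6% of all genes did) and 2 downwards (11.3%) in macrophages against Spic-negative monocytes, and the median was -0.11. Sqstm1, the cargo receptor p62, measured 9.81, 10.27 and 12.25 on the Spic-negative, Spic-positive and macrophage arrays, although its further probe set differed by only 0.59. The kinase gene Ulk2 measured 7.81, 7.33 and 9.47, and its relative Ulk1 9.01, 8.72 and 7.92, so the related kinases lay on opposite sides, although a further Ulk1 probe set differed by 0.25. Between the monocyte arrays 17 of the 21 autophagy genes were below 0, with a median of -0.32, beside 55.0% and -0.06 for all genes. Atg7 was the 1 past 2-fold (-1.15), but its 2 further probe sets above the floor gave -0.25 and -0.11.

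Genes that deliver enzymes to lysosomes included Gga2, an adaptor for mannose 6-phosphate receptors, at 7.32, 8.39 and 9.28. Gnptab, which makes the mannose 6-phosphate tag, differed from Spic-negative monocytes by -0.93 (Spic-positive) and -1.48 (macrophages), and its 2 further probe sets were lower in both as well. Of 18 such genes, 2 passed 2-fold upwards (19.6% of all genes did) and 2 downwards (11.3%) in macrophages against Spic-negative monocytes. Of 4 cathepsin inhibitor genes above the floor, Cst7 (cystatin F) measured 4.73, 7.13 and 6.59, so its level in Spic-negative monocytes lay below the floor. Stfa2l1, a stefin, exceeded the floor on the Spic-negative array only, at 4.31 and 3.99 on the others. Cst3 (cystatin C) measured 13.02, 12.86 and 12.76. Cstb (cystatin B) measured 11.46, 11.81 and 11.75, but a further probe set put macrophages lowest, at 10.27, 10.90 and 9.55.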
